A study of Mus musculus with 5 samples.

Results

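Caprin2, Foxp1, Calb1 and Creb3l1 are genes used to mark magnocellular neurons of the hypothalamus. They were taken by symbol from the gene annotation of 5 single-nucleus RNA libraries of the mouse paraventricular hypothalamic nucleus, and all 4 were found once among 31053 genes. The sequencing counted nuclear RNA molecules by unique molecular identifiers (UMIs) on the 10x Genomics platform. Levels are UMIs per 1000000 UMIs of a population of nuclei (CPM), and tests used counts summed per library. Levels given for bins, splits or sub-clusters without a library, and shares of nuclei with a UMI, are over all libraries together.

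Magnocellular neurons are large neuroendocrine cells that make oxytocin or vasopressin in great amounts and release the hormone into the blood from axon endings in the posterior pituitary. Parvocellular oxytocin neurons of the same nucleus are smaller and project within the brain, and reelin (Reln) is one of the genes used to recognise them. Caprin2 encodes an RNA-binding protein known in magnocellular neurons for binding vasopressin mRNA. Creb3l1 encodes a transcription factor held in the endoplasmic reticulum membrane until it is cleaved, and it is known as an activator of the vasopressin gene. Foxp1 encodes a forkhead transcription factor that mostly represses its targets, and Calb1 encodes calbindin, a protein that binds and buffers calcium.

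All animals were male, on a C57BL6 background, and carried OT-Cre, a driver of Cre recombinase in oxytocin neurons. In the first experiment they were OT-Cre; Rosa26tm9(CAG-tdTomato)Hze, in which Cre switches on a red reporter, and were 5 weeks old. Their mothers had received either saline at 10 mL/kg or valproic acid (VPA, an antiepileptic drug) at 500 mg/kg on gestation day 12.5. In the second experiment all mice were OT-Cre; Rosa26dreaddm3, in which Cre switches on the engineered receptor hM3, and were 5 to 7 weeks old. Every animal of the second experiment had been exposed to VPA before birth and had an AAV injection into the paraventricular and supraoptic regions, whose content the labels do not state. On postnatal day 2 they were given saline (the hM3 control) or clozapine N-oxide (CNO), the agent that activates hM3. The saline, VPA and hM3 control groups had 1 library each and the CNO group had 2. Nuclei of 2 to 4 mice per condition were pooled and cannot be told apart by animal, and whether the 2 CNO libraries came from separate animals is not stated, so p-values measure the spread between these libraries. Dissection of the first experiment followed the red reporter, and the sort gate favoured larger nuclei, so that shares of nuclei are shares of that gate.

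The libraries held 4440 to 10904 nuclei and 52506958 to 76243280 UMIs, with median UMIs per nucleus from 3722.5 in CNO replicate 2 to 11913 in CNO replicate 1. After filters 4115 to 9823 nuclei per library were used, and 18776 nuclei lay in clusters with neuron markers. Any pair of libraries shared 4 to 23 cell barcodes. Neurons with at least 3 Oxt UMIs were called Oxt-positive (441 nuclei; 105 in saline, 136 in VPA, 79 in the hM3 control, and 25 and 96 in CNO replicates 1 and 2). Neurons below that with at least 1 Sim1 UMI were called Sim1-positive (4440 nuclei), since Sim1 is a transcription factor of the paraventricular lineage. The remaining 13895 were the other neurons. None of the 4 genes, nor Oxt, Avp, Sim1 or the Cre transgene, entered the clustering. Oxt UMIs were also found in glia, which do not make the hormone. Glia with at least 3 Oxt UMIs made up 0.595% of glia in saline, 0.335% in VPA, 0.689% in the hM3 control, and 0.153% and 1.34% in CNO replicates 1 and 2. The corresponding shares of neurons were 2.76%, 1.83%, 2.68%, 1.01% and 4.54%, at median depths of 6189 to 17176 UMIs against 1891 to 4084.5 in glia. Scaled to depth, Oxt over all glia was above Oxt over all neurons in saline, VPA, the hM3 control and CNO replicate 2. Glia held 101 CPM against 48.1 in neurons of VPA, and 130 against 59.9 in CNO replicate 2. In CNO replicate 1 the levels were alike, at 10.31 and 10.29 CPM. The part of this background in the Oxt-positive calls was not tested. The lineage genes Sim1, Otp and Pou3f2 were detected in Oxt-positive neurons of every library. Oxt-positive nuclei of both CNO libraries stood apart. In CNO replicate 1 60.0% and in CNO replicate 2 55.2% of them lay in the 2 clusters that held most Oxt-positive nuclei, against 86.8% to 88.6% in the other libraries. One of these clusters was led by Avp and Oxt and the other by Reln and Esr2.

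The genes lie on 3 chromosomes of mouse build GRCm38 (mm10). Caprin2 (ENSMUSG00000030309) spans chr6:148842492-148896237 on the minus strand and Foxp1 (ENSMUSG00000030067) chr6:98925338-99522721 on the minus strand. Calb1 (ENSMUSG00000028222) spans chr4:15881264-15908064 on the plus strand and Creb3l1 (ENSMUSG00000027230) chr2:91982328-92024502 on the minus strand. All 4 are protein coding. Foxp1 overlaps 4 annotated genes on its own strand (Gm49348, Gm20696, Gm20705 and Gm22328), and reads in the overlaps could have been counted for either.

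The promoter of Caprin2 is printed as the one member with a RefSeq window clear of annotated exons, and the promoter of Oxt because its RNA set the population. Both windows are the 250 bases before the RefSeq start, written 5′ to 3′ along the gene, Caprin2 from chr6:148896238-148896487 (minus strand) and Oxt from chr2:130575919-130576168 (plus strand), build GRCm38.p6. Capitals mark TGTTTA, the core that forkhead factors such as Foxp1 bind, or AGGTCA, the half-site of nuclear receptors, on either strand.
Caprin2: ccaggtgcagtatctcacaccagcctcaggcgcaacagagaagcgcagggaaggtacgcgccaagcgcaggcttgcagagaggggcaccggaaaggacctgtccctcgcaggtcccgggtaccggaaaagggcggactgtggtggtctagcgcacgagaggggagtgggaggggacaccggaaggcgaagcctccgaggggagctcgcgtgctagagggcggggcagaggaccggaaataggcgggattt
Oxt: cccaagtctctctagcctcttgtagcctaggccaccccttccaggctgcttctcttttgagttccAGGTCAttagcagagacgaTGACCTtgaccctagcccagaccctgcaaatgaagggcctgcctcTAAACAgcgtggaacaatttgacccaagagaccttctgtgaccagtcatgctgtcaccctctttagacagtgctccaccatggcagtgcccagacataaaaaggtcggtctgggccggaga
The Caprin2 window held neither motif, and no copy of TGACGTCA, the cyclic AMP response element. The Oxt window held 1 forkhead core (as TAAACA) and 2 nuclear receptor half-sites (as AGGTCA and TGACCT), which do not overlap. Among 32851 promoter windows of that length, 12.0% held TGTTTA, 14.0% held AGGTCA and 1.55% held TGACGTCA on either strand. Caprin2 and Foxp1 were matched in the RefSeq table by symbol, and Calb1 and Creb3l1 were not. The 3 RefSeq windows of Foxp1 overlap its own annotated exons and are not printed. They held 1, 2 and 1 forkhead cores and 0 half-sites. A match is a description of the letters and not a site of binding.

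Caprin2, the RNA-binding protein gene, was highest in Oxt-positive neurons, lower in Sim1-positive neurons and lowest in the other neurons, in each of the 5 libraries. Its level in Oxt-positive neurons was 301 CPM in saline, 286 in VPA, 214 in the hM3 control, and 122 and 110 in CNO replicates 1 and 2. In Sim1-positive neurons it was 92.0, 83.8, 64.3, 47.5 and 59.9 CPM in the same order, and in other neurons 33.2, 32.1, 24.5, 25.5 and 28.3 CPM. The ranges of the 3 populations did not overlap, although the saline library was the highest and a CNO library the lowest in both the Oxt-positive and the Sim1-positive neurons. Oxt-positive neurons exceeded Sim1-positive neurons by 1.53 on the log2 scale (SE 0.14, a 2.89-fold difference, edgeR quasi-likelihood test with library as a block, adjusted p = 1.141e-06). They exceeded other neurons by 2.75 (SE 0.14, edgeR adjusted p = 1.251e-09), and Sim1-positive neurons exceeded other neurons by 1.22 (SE 0.12, edgeR adjusted p = 3.494e-06). Each was higher in 5 of 5 libraries.

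The Caprin2 level of vasopressin-rich neurons was above that of Oxt-positive neurons in each library. Avp-rich neurons (at least 10 Avp UMIs and fewer than 3 Oxt UMIs, 105 nuclei) had 724 ± 293 CPM of Caprin2 (SD, n = 5 libraries), against 207 ± 89.0 in Oxt-positive neurons. By library the Avp-rich neurons held 836 CPM in saline, 1078 in VPA, 767 in the hM3 control, and 662 and 279 in CNO replicates 1 and 2. The 2 ranges overlapped through CNO replicate 2, the lowest library. No test of this difference was made.

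Foxp1, the forkhead factor gene, was higher in Oxt-positive neurons than in both other populations. Oxt-positive neurons held 504 CPM in saline, 535 in VPA, 501 in the hM3 control, and 430 and 337 in CNO replicates 1 and 2. Sim1-positive neurons held 186 to 217 CPM and other neurons 206 to 249 CPM, ranges that overlapped each other and lay wholly below the Oxt-positive neurons. The difference from Sim1-positive neurons was 1.13 (log2, SE 0.08, 2.19-fold, edgeR adjusted p = 1.446e-07), and from other neurons 1.00 (SE 0.08, edgeR adjusted p = 1.52e-07), each in 5 of 5 libraries. Between Sim1-positive and other neurons the difference was -0.13 (SE 0.07, edgeR adjusted p = 0.287), lower in 3 of 5 libraries. Avp-rich neurons held 349 ± 92.6 CPM (SD, n = 5 libraries).

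Calb1, the calbindin gene, differed less between the populations. Oxt-positive neurons held 62.1 CPM in saline, 96.1 in VPA, 87.4 in the hM3 control, and 90.6 and 83.9 in CNO replicates 1 and 2. Sim1-positive neurons held 43.3, 58.8, 64.1, 64.6 and 61.3 CPM in that order, and other neurons 64.8, 67.5, 63.7, 81.3 and 64.5. The saline library was the lowest for Calb1 in Oxt-positive and Sim1-positive neurons, and the ranges of the 3 populations overlapped. Within libraries Oxt-positive neurons were above Sim1-positive neurons in 5 of 5, by 0.49 (log2, SE 0.10, 1.41-fold, edgeR adjusted p = 0.00235). At a common depth of 2000 UMIs per nucleus this difference was 0.60 with an edgeR adjusted p of 0.0532. Against other neurons the difference was 0.22 (SE 0.10, edgeR adjusted p = 0.109; 4 of 5 libraries), while without the saline library it was 0.32 with an edgeR adjusted p of 0.0111. Sim1-positive neurons were below other neurons by a log2 difference of -0.28 (SE 0.07, edgeR adjusted p = 0.0116; 4 of 5 libraries), which did not pass without the saline library (edgeR adjusted p = 0.0603) or without CNO replicate 1 (0.0643).

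Creb3l1 was close to the detection limit. All 441 Oxt-positive nuclei held 17 UMIs of it, which were 7 in saline, 0 in VPA, 4 in the hM3 control and 3 in each CNO library. These counts gave 3.69, 0, 2.02, 4.31 and 1.61 CPM, with exact Poisson 95% intervals (counting error only) as wide as 0.890 to 12.6 CPM in CNO replicate 1. For the VPA library a count of 0 allows up to 2.32 CPM, taking 3 counts as the limit. Sim1-positive neurons held 1.38 to 3.33 CPM and other neurons 0.852 to 2.37 CPM, and the 3 ranges overlapped. The difference between Oxt-positive and Sim1-positive neurons was -0.13 (log2, SE 0.53, edgeR adjusted p = 0.921), so that a difference was not detectable at this depth. Avp-rich neurons held 21 Creb3l1 UMIs in 105 nuclei, 11 in saline, 1 in VPA, 8 in the hM3 control, and 1 and 0 in CNO replicates 1 and 2, or 13.5 ± 11.8 CPM (SD, n = 5 libraries).

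**Figure D1:**
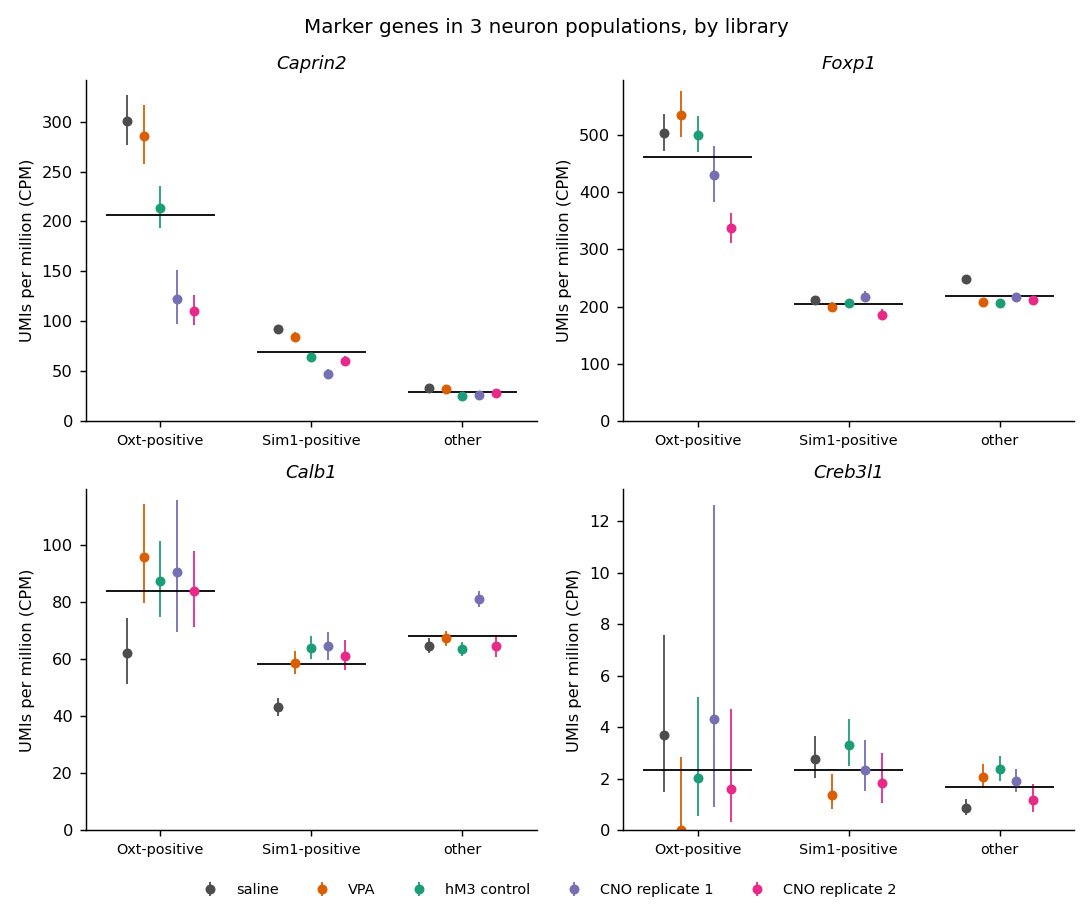
Level of each gene (vertical axis, CPM from 0) in Oxt-positive, Sim1-positive and other neurons, with 1 point per library, its exact Poisson 95% interval and a black line at the mean of 5 libraries. Caprin2 steps down over the 3 populations, Foxp1 is high in Oxt-positive neurons alone among these 3 populations (337 to 535 CPM against 186 to 249), Calb1 overlaps, and Creb3l1 stays below 5 CPM.

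Without each library in turn, the difference between Oxt-positive and Sim1-positive neurons ran from 1.48 to 1.67 for Caprin2, from 1.07 to 1.20 for Foxp1 and from 0.46 to 0.53 for Calb1. Among Oxt-positive nuclei of the 2 main clusters alone, it was 1.83, 1.32 and 0.52. In all, 3 of the 4 genes were called higher in Oxt-positive than in Sim1-positive neurons, beside 8.27% called higher and 8.96% lower of all 16515 genes tested (17.2% in either direction). Against other neurons 2 of 4 were called higher, beside 13% called higher and 14.5% lower (27.4% in either direction). Between Sim1-positive and other neurons 1 was called higher and 1 lower, beside 8.25% called higher and 8.85% lower (17.1% in either direction). A UMI of Caprin2 was found in 76.0% of Oxt-positive, 40.9% of Sim1-positive and 25.4% of other neurons, and in 32.7%, 11.5% and 5.86% with each nucleus thinned to 2000 UMIs. That cut left out 94 neurons with fewer UMIs. For Foxp1 the thinned shares were 54.0%, 30.6% and 31.1%, and for Calb1 14.3%, 9.54% and 11%. Oligodendrocytes, which served as a background for neuron transcripts, held 13.2 ± 3.20 CPM of Caprin2 and 7.77 ± 4.42 CPM of Calb1 (SD, n = 5 libraries).

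Outside neurons the genes were placed differently. Foxp1 was high in fibroblasts (853 ± 214 CPM), in endothelial and mural nuclei (746 ± 94.7 CPM) and in microglia (410 ± 106 CPM; each SD, n = 5 libraries). Vascular and fibroblast nuclei therefore exceeded the mean of Oxt-positive neurons, 462 ± 79.5 CPM. Calb1 reached 98.7 ± 65.4 CPM in ependymal nuclei on 37 UMIs, and it was at 13.6 ± 5.61 CPM in astrocytes. Caprin2 was at 95.5 ± 85.1 CPM in fibroblasts, on 20 UMIs in 68 nuclei. Creb3l1 was at 24.8 ± 30.8 CPM in fibroblasts, on 8 UMIs. It was also detected in astrocytes (5.28 ± 1.90 CPM) and oligodendrocyte progenitors (7.68 ± 3.85 CPM), on 82 and 19 UMIs, and had 0 UMIs in 370 microglia, which allows up to 3.48 CPM.

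Within Oxt-positive neurons, splitting at 500 CPM of Reln gave 92 Reln-rich nuclei, the parvocellular direction of the marker, and 349 Reln-poor nuclei. Of the 441 nuclei 55 lay within 250 CPM of the split and 265 had no Reln UMI. Reln set the split and is not a result of it. Calb1 in Reln-poor neurons was 82.3 CPM in saline, 125 in VPA, 111 in the hM3 control, and 103 and 89.4 in CNO replicates 1 and 2. In Reln-rich neurons it was 14.2, 0, 6.65, 42.6 and 0 CPM, on 17 UMIs in all, and counts of 0 in VPA and CNO replicate 2 allow up to 10.0 and 26.2 CPM. The ranges did not overlap, and the difference was -3.21 (log2, SE 0.38, edgeR adjusted p = 7.063e-06), lower in Reln-rich neurons in 5 of 5 libraries. It was -2.31 with the split at 200 CPM of Reln (edgeR adjusted p = 3.192e-05) and -2.37 with Oxt-positive neurons taken from 10 Oxt UMIs (edgeR adjusted p = 0.0019).

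Foxp1 was also lower in Reln-rich neurons. Reln-poor neurons held 666 CPM in saline, 659 in VPA, 593 in the hM3 control, and 498 and 348 in CNO replicates 1 and 2, and Reln-rich neurons held 121, 127, 188, 163 and 175 CPM. The lowest Reln-poor value, in CNO replicate 2, was still above every Reln-rich value. The Reln-rich values rest on 68, 38, 85, 23 and 20 Foxp1 UMIs. The difference was -1.92 (log2, SE 0.18, edgeR adjusted p = 4.62e-07; lower in 5 of 5 libraries). In each library the Reln-rich value was also below that of Sim1-positive neurons, a difference that was not tested.

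Caprin2 held 361, 344, 240, 126 and 115 CPM in Reln-poor and 158, 93.6, 124, 107 and 43.7 CPM in Reln-rich neurons, in the same order of libraries. Across libraries the ranges overlapped, with the Reln-poor neurons of both CNO libraries inside the range of Reln-rich neurons. Within libraries Reln-rich neurons were lower in 5 of 5, by a log2 difference of -1.19 (SE 0.18, edgeR adjusted p = 9.542e-05). The Reln-rich values rest on 89, 28, 56, 15 and 5 Caprin2 UMIs in that order of libraries. Without the library block the difference was -1.07 with an edgeR adjusted p of 0.0829. Creb3l1 did not pass the filter on low counts here. All 3 tested genes were thus called lower in Reln-rich neurons, beside 4.66% of 7121 genes called lower, 5.35% called higher and 10% called in either direction.

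**Figure D2:**
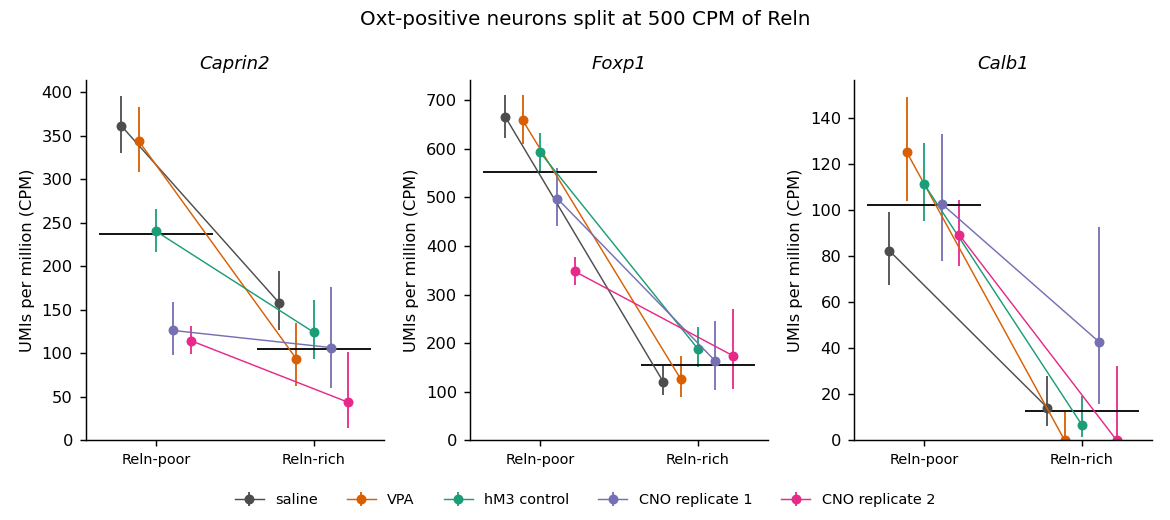
Level of Caprin2, Foxp1 and Calb1 (vertical axis, CPM from 0) in Reln-poor and Reln-rich Oxt-positive neurons, with lines joining the 2 values of a library, exact Poisson 95% intervals and black lines at the means. All 15 lines fall from Reln-poor to Reln-rich neurons, least for Caprin2 in CNO replicate 1 (126 to 107 CPM, on 70 and 15 UMIs).

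Caprin2, Foxp1 and Calb1 had higher levels in the nuclei with the most Oxt UMIs than in those with the fewest, in each library. Caprin2, summed over libraries, was 116 CPM in 122 nuclei with 3 to 4 Oxt UMIs, 196 in 116 nuclei with 5 to 9, 253 in 164 nuclei with 10 to 29 and 316 in 39 nuclei with 30 or more. Foxp1 was 303, 382, 550 and 644 CPM over these bins, and Calb1 73.0, 82.0, 86.2 and 86.5 CPM. The libraries have unequal shares of the bins. The lowest bin held 17, 56, 19, 4 and 26 nuclei and the highest 18, 2, 9, 2 and 8, in the order saline, VPA, hM3 control and the CNO replicates. By library, Calb1 was 25.4, 92.7, 50.7, 24.0 and 116 CPM in the lowest bin and 66.7, 145, 95.1, 51.3 and 130 CPM in the highest, on 3 to 55 UMIs each. From the lowest to the highest bin all 3 genes were thus higher in 5 of 5 libraries. Calb1 had the smallest change over all libraries (73.0 to 86.5 CPM), and its values by library rest on few UMIs. The lineage gene Sim1 and the parvocellular marker Reln also differed between the bins. A Sim1 UMI was found in 68.0%, 96.6% and 99.4% of nuclei in the lower bins and in 39 of 39 in the highest, and Reln was 358, 306, 240 and 171 CPM over all libraries. In CNO replicate 2 Reln went the other way, with 63.3 CPM in the lowest bin and 188, 177 and 124 CPM in the next ones. The part of Sim1 and Reln in these values was not tested. The bins use raw Oxt UMIs, not scaled to the depth of a nucleus, and the part of depth was not tested. Nuclei of a library are not independent, so these values are given without a test.

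**Figure D3:**
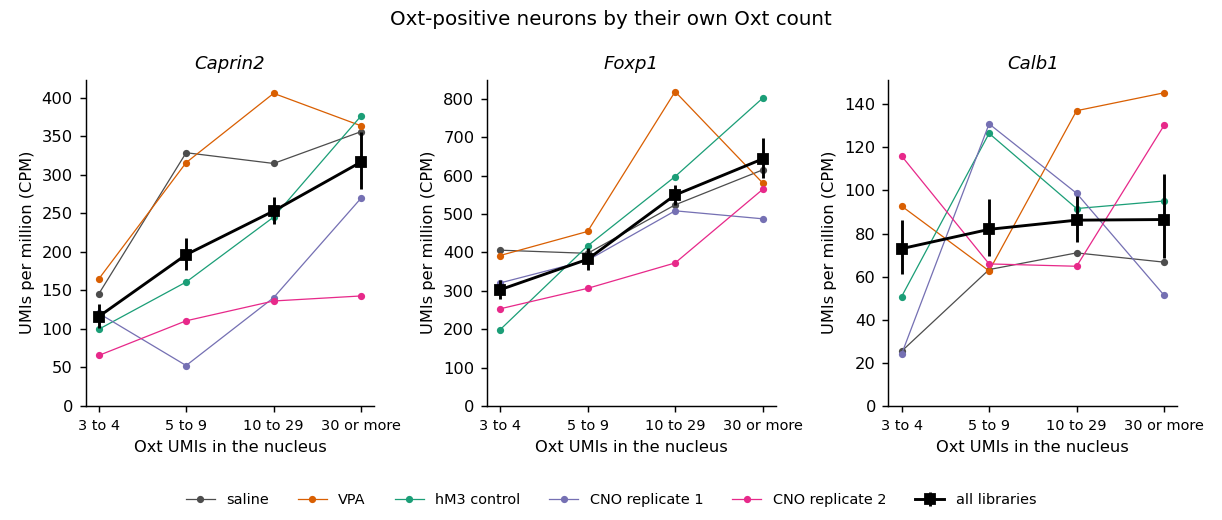
Level of Caprin2, Foxp1 and Calb1 (vertical axis, CPM from 0) in Oxt-positive neurons binned by the number of Oxt UMIs in the nucleus (horizontal axis). The black line joins sums over all libraries with exact Poisson 95% intervals, rising from 116 to 316 CPM for Caprin2, and the thin lines are single libraries, some with only 2 nuclei in the highest bin.

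The genes also varied together among Oxt-positive nuclei. The 245 nuclei with at least 300 CPM of Foxp1 held 410 CPM of Caprin2 in saline, 362 in VPA, 272 in the hM3 control, and 143 and 157 in CNO replicates 1 and 2. The 196 nuclei below 300 CPM held 191, 136, 119, 86.3 and 76.6 CPM. Calb1 was 113 CPM in the first set and 44.3 CPM in the second over all libraries, and Reln was 84.0 and 511 CPM. Caprin2 and Calb1 were higher, and Reln lower, in the Foxp1-high nuclei of each library. Sim1 (551 and 376 CPM over all libraries) and Oxt (853 and 587 CPM) were also higher there in each library. A Sim1 UMI was found in 96.3% of Foxp1-high and 82.1% of the other nuclei. The part of Sim1 and Oxt in these values was not tested.

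Over 57 neuron sub-clusters of at least 50 nuclei, found without the 4 genes, each gene had a different place. Caprin2 was highest in the sub-cluster led by Avp (623 CPM, SD 169 over 5 libraries), then in that led by Oxt (344 CPM, SD 107), then in one led by Gm43154, Pde3a and Calcr (122 CPM, SD 34.5). The median sub-cluster held 32.2 CPM. Of the 259 nuclei of the Avp-led sub-cluster 249 were Sim1-positive, and it held 1775 Caprin2 UMIs, beside 4703 in all 4440 Sim1-positive neurons. Other sub-clusters made up mostly of Sim1-positive nuclei ran from 26.4 CPM in one led by Ebf2 (219 of 267 nuclei) to the 122 CPM of the Gm43154-led one (251 of 278). Between them lay one led by Rxfp2 and Hhip with 98.4 CPM (210 of 262), one led by Esr2 and Reln with 73.0 CPM (335 of 497) and one led by Ebf1 with 33.8 CPM (536 of 727). Foxp1 was highest in the Oxt-led sub-cluster (688 CPM, SD 77.4), followed by one led by Ucn3 and Etv1 (588 CPM, SD 75.8) and one led by Glis3 (525 CPM, SD 55.6), over a median of 177 CPM. The first and the second of these overlap within their SD over libraries.

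Calb1 was highest in a sub-cluster led by Adgrg6 and Prkch (192 CPM, SD 27.7), a group low in Sim1 and Oxt. Next came one led by 1700023F02Rik and Lhx9 (134 CPM, SD 37.0), one led by Hcrt (123 CPM, SD 60.8) and then the Oxt-led sub-cluster (120 CPM, SD 24.7), and these last 3 do not differ beyond their spread. The sub-cluster led by Esr2 and Reln, with 114 Oxt-positive nuclei, was the lowest of all for Calb1 (6.36 CPM). Creb3l1 was highest in a sub-cluster led by Prr5l with Vipr2, the receptor gene of vasoactive intestinal peptide (30.6 CPM, SD 7.68 over 3 libraries, on 100 UMIs). Of its nuclei 61.5% came from 1 library. Sub-clusters led by Hcrt (18.6 CPM, SD 11.6, on 19 UMIs), Agtr1a (18.1 CPM, SD 7.38) and Avp (10.9 CPM, SD 9.20) followed, and the Oxt-led sub-cluster held 1.84 CPM. The Prr5l-led sub-cluster overlaps those led by Hcrt and Agtr1a within their SD over libraries.

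**Figure D4:**
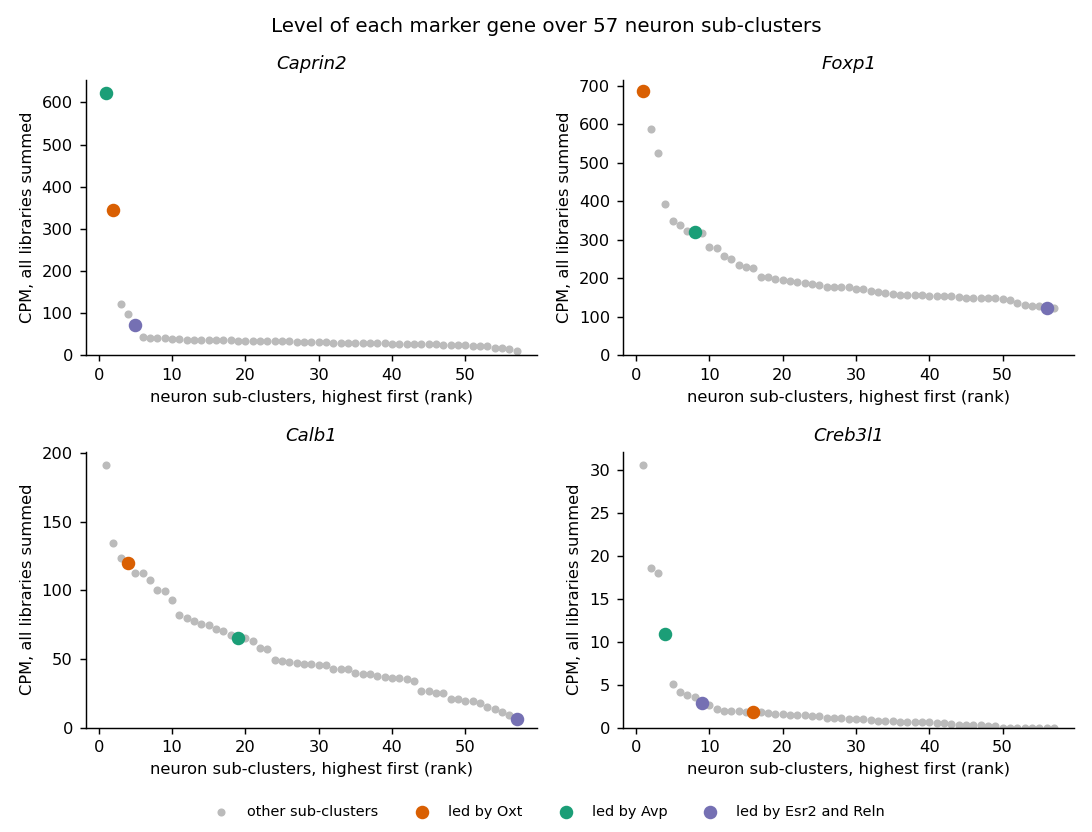
Level of each gene (vertical axis, CPM of summed counts) in 57 neuron sub-clusters, ordered from the highest to the lowest for that gene (horizontal axis, rank). The Avp-led and Oxt-led sub-clusters take the first places for Caprin2 (623 and 344 CPM), while the Esr2- and Reln-led one is last for Calb1 (6.36 CPM).

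The genes whose levels ran most alike over these 57 sub-clusters are given by Pearson r of log2(CPM + 10), as a description with no test, among 9564 genes. For Caprin2 they were Dnah8 (0.91), a dynein heavy chain gene, Arfgef3 (0.89) and C030029H02Rik (0.83). For Foxp1 they were Kcnmb4 (0.64), which encodes a subunit of a calcium-activated potassium channel, Eml1 (0.63) and Cfap74 (0.61). For Calb1 they were Tom1l1 (0.52), Wwc1 (0.52) and Arap2 (0.51), and for Creb3l1 Slc12a7 (0.72), Stk24 (0.70) and Xbp1 (0.69), the last a transcription factor gene of the unfolded protein response. Among the 4 genes themselves r was at most 0.37 (Foxp1 and Calb1) and was -0.09 for Caprin2 and Calb1. Caprin2 had 0.71 with Avp and 0.61 with Oxt, and Creb3l1 0.51 with Avp and 0.04 with Oxt.

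Relatives of the 4 genes were examined as a list of 12, of which 9 could be tested. In Oxt-positive against Sim1-positive neurons 4 were called higher, 1 lower and 4 did not pass, with a median log2 difference of 0.27 against -0.02 over all genes, of which 8.27% were higher and 8.96% lower. Foxp2, a relative of Foxp1, differed by 2.20 (1279 ± 336 against 275 ± 73.7 CPM; SD, n = 5 libraries; edgeR adjusted p = 2.189e-07). Creb3l2, another membrane-held factor of the Creb3 family, differed by 1.73 (79.9 ± 26.4 against 23.3 ± 5.62 CPM, edgeR adjusted p = 1.075e-05), whereas Creb3l1 itself did not pass. Foxp4 was higher by 1.03, and Necab2, a neuronal calcium-binding protein gene, was lower by a log2 difference of -0.60. In the Reln split Creb3l2 was lower in Reln-rich neurons by a log2 difference of -2.80 (100 ± 40.5 CPM in Reln-poor and 11.8 ± 13.6 in Reln-rich) and Necab1 of -3.25, while Foxp2 was higher by 0.43. There 1 of 4 tested relatives was higher and 2 lower, beside 5.35% and 4.66% of all genes.

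Of 18 genes of endoplasmic reticulum stress, the setting in which Creb3-family factors work, 5 were higher in Oxt-positive than in Sim1-positive neurons, 1 was lower and 12 did not pass (median 0.21). Of all genes tested, 8.27% were higher and 8.96% lower. The largest were Eif2ak3 (1.04) and Ern1 (0.74), which encode sensors of unfolded protein, then Dnajb9 (0.64) and Pdia4 (0.62), which encode folding helpers. In the Reln split 2 of 13 tested were lower in Reln-rich neurons, Eif2ak3 by a log2 difference of -1.68 and Ern1 of -1.46, 0 were higher and 11 did not pass, beside 4.66% of all genes lower and 5.35% higher.

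Peptide processing and dense-core vesicle genes split in both directions. Of 18, 5 were higher and 7 lower in Oxt-positive than in Sim1-positive neurons, and 6 did not pass (median -0.19), beside the same 8.27% and 8.96% of all genes. Pcsk1, a prohormone convertase gene, was higher by 1.45 and Cadps2, a gene of vesicle priming, by 1.07. The granin genes Scg2 and Vgf were lower, by log2 differences of -1.40 and -1.09. In the Reln split 3 of 16 were higher and 2 lower in Reln-rich neurons, with the convertase genes Pcsk5 (1.11) and Pcsk2 (0.95) higher and Pcsk1 lower (-1.06). Of all genes 5.35% were higher and 4.66% lower there.

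Of the 4 further genes used to tell magnocellular from parvocellular oxytocin neurons, Kcnmb4 was called lower in Reln-rich neurons (a log2 difference of -1.21). Cnr1, the cannabinoid receptor gene, was higher by 1.30 and Foxp2 by 0.43, and Reln set the split. In the split 5.35% of all genes were higher and 4.66% lower. Against Sim1-positive neurons, Kcnmb4 (1.09), Foxp2 and Reln (0.60) were higher and Cnr1 did not pass. Among 11 peptide and hormone genes, of which 10 were tested, 1 was higher in Oxt-positive than in Sim1-positive neurons, namely Oxt, which set the population. Trh (-2.0), Penk (-1.93) and Tac1 (-1.20) were lower, and 6 did not pass. Both sets stand beside 8.27% of all genes higher and 8.96% lower in that comparison.

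The same lists were counted against the other neurons, where 13% of all genes were higher and 14.5% lower in Oxt-positive neurons. Of the relatives 4 of 9 were higher and 0 lower in Oxt-positive than in other neurons (median 0.19, all genes -0.02), with Foxp2 at 2.56 and Creb3l2 at 2.54. Endoplasmic reticulum stress genes had 8 higher and 1 lower of 18 (median 0.25), led by Ern1 (1.31) and Eif2ak3 (1.13). Peptide processing genes had 6 higher and 8 lower of 18 (median -0.22), with Pcsk1 at 2.85 and Slc18a2, a vesicular monoamine transporter gene, at -1.51. The further genes used to tell magnocellular from parvocellular oxytocin neurons had 3 higher and 0 lower of 4 (median 1.67). Peptide and hormone genes, a list with Oxt, which set the population, had 3 higher and 2 lower of 10 (median -0.06). Between Sim1-positive and other neurons, where 8.25% of all genes were higher and 8.85% lower, the lists had 2 of 9 relatives, 2 of 18 stress genes and 5 of 18 peptide processing genes higher and 0, 0 and 3 lower. The further genes had 2 of 4 higher and 0 lower there, and the peptide and hormone genes 4 of 10 higher and 1 lower.

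Prenatal VPA was compared with saline in the first experiment, with 1 library in each group, so there is no test and no replicate check. Caprin2 in Oxt-positive neurons was 301 CPM in saline and 286 CPM in VPA, a log2 ratio of -0.07 (exact 95% counting interval -0.27 to 0.12). Foxp1 was 504 and 535 CPM, a ratio of 0.09 (-0.06 to 0.23). For both genes the interval included 0. It did not in Sim1-positive neurons, where the ratio was -0.13 (-0.25 to -0.02) for Caprin2 and -0.09 (-0.16 to -0.01) for Foxp1, nor for Caprin2 in Reln-rich neurons, at -0.76 (-1.42 to -0.13) on 89 and 28 UMIs. With Oxt-positive neurons taken from 10 Oxt UMIs the ratios were 0.30 for Caprin2 and 0.54 for Foxp1.

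Calb1 was higher in the VPA library in Oxt-positive neurons, with 62.1 CPM in saline and 96.1 CPM in VPA, a log2 ratio of 0.63 (0.25 to 1.01). Sim1-positive neurons had 43.3 and 58.8 CPM, a ratio of 0.44 (0.29 to 0.59), and other neurons 64.8 and 67.5 CPM, a ratio of 0.06 (-0.02 to 0.14). The Reln-poor Oxt-positive neurons gave 0.60 (0.22 to 0.99). Markers of other neuron types differed between the same nuclei. The 3 thalamus-type markers (Tcf7l2, Lef1 and Prkcd) summed to 16.8 CPM in Oxt-positive neurons of saline and 52.7 CPM in VPA, and the inhibitory markers Slc32a1, Gad1 and Gad2 to 26.3 and 41.8 CPM. Among Oxt-positive nuclei of the 2 main clusters alone Calb1 was 61.9 CPM in saline and 99.0 CPM in VPA. Over 7 other ways of choosing or scaling the Oxt-positive nuclei the Calb1 ratio ran from 0.28 to 0.98. Foxp1 in other neurons was lower, with a log2 ratio of -0.26 (-0.30 to -0.22). The thalamus-type markers there summed to 320 CPM in saline and 118 CPM in VPA, and the cluster led by Synpo2 and Lef1 held 441 of 3805 neurons in saline and 299 of 7428 in VPA. A sub-cluster that shares Synpo2 among its leading genes, that led by Adgrg6 and Prkch, had 323 CPM of Foxp1. The part of this make-up in the Foxp1 ratio was not tested. Creb3l1 had 7 UMIs in saline and 0 in VPA in Oxt-positive neurons, and in other neurons 32 and 77 UMIs, a ratio of 1.28 (0.66 to 1.92). The sub-cluster led by Prr5l with Vipr2 held 100 Creb3l1 UMIs, beside 297 in all other neurons. The cluster that shares its leading genes 9330185C12Rik, Cdc14a and Vipr2 held 3 nuclei in saline and 204 in VPA, and its part in the ratio was not tested. The Creb3l1 ratio in Sim1-positive neurons was -1.01 (-1.88 to -0.20), opposite in sign.

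CNO on postnatal day 2 was compared with saline in VPA-exposed mice carrying hM3, with 1 control library and 2 CNO libraries. Caprin2 in Oxt-positive neurons was 214 CPM in the hM3 control (exact Poisson 95% interval 194 to 235), 122 CPM in CNO replicate 1 (97.6 to 151) and 110 CPM in CNO replicate 2 (95.7 to 126). Both CNO libraries lay below the control, with log2 ratios of -0.81 (-1.16 to -0.47) and -0.96 (-1.20 to -0.71), and the ratio between the CNO libraries was -0.15 (-0.52 to 0.23). The edgeR estimate was -0.93 (SE 0.29, adjusted p = 0.213), which did not pass, with 2 of 2 CNO libraries lower. An exact permutation of 1 against 2 libraries cannot give a p below 0.333. In Reln-poor neurons the estimate was -1.05 (SE 0.29, edgeR adjusted p = 0.0853), in Sim1-positive neurons -0.34 (SE 0.26, edgeR adjusted p = 1.00) and in other neurons 0.04 (SE 0.29, edgeR adjusted p = 1.00).

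The make-up of Oxt-positive nuclei differed between these libraries. In CNO replicate 2, 26 of the 96 nuclei lay in a cluster led by Synpo2 and Lef1 that held 1 Oxt-positive nucleus in the hM3 control and 1 in CNO replicate 1. In a cluster led by the interferon-induced genes Ifit1 and Rnf213 lay 5 and 6 Oxt-positive nuclei of the CNO replicates and 0 of the control. The 3 thalamus-type marker genes (Tcf7l2, Lef1 and Prkcd), all detected, summed to 220 CPM in Oxt-positive neurons of CNO replicate 2, 25.9 in CNO replicate 1 and 18.2 in the control. The 3 lineage genes Sim1, Otp and Pou3f2 summed to 330, 477 and 631 CPM. Astrocyte markers, 6 to 7 of 8 detected, summed to 156, 46.0 and 68.7 CPM. With only the Oxt-positive nuclei of the 2 main clusters, Caprin2 was 249 CPM in the control, and 166 and 191 in CNO replicates 1 and 2. The log2 ratio of the mean CPM of the 2 CNO libraries to the control, called the mean ratio, then was -0.48 in place of -0.88. The part of the other markers in the Caprin2 values was not tested further. In Avp-rich neurons Caprin2 was 767 CPM in the control and 662 and 279 CPM in the CNO libraries.

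Foxp1 in Oxt-positive neurons was 501 CPM in the hM3 control, and 430 and 337 in CNO replicates 1 and 2. Both CNO libraries were lower, with log2 ratios of -0.22 (-0.41 to -0.03) and -0.57 (-0.72 to -0.42), but they also differed from each other by -0.35 (-0.55 to -0.15). The edgeR estimate was -0.44 (SE 0.28, adjusted p = 1.00). In the 2 main clusters alone the levels were 539, 520 and 488 CPM, and the mean ratio was -0.10. In Sim1-positive and other neurons the 2 ratios lay between -0.16 and 0.07. Markers also differed in Sim1-positive neurons, where the thalamus-type genes summed to 50.9 CPM in the control and 122 and 201 CPM in the CNO libraries, and the lineage genes to 314, 251 and 243 CPM. Their part in the Sim1-positive values was not tested.

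Calb1 in Oxt-positive neurons was 87.4 CPM in the control and 90.6 and 83.9 CPM in the CNO libraries, ratios of 0.05 (-0.39 to 0.48) and -0.06 (-0.38 to 0.26). Neither CNO library stood apart from the control beyond counting error. In the 2 main clusters alone the levels were 98.7, 79.9 and 79.3 CPM, and the mean ratio was -0.31. In other neurons it was 63.7 CPM in the control, and 81.3 and 64.5 in CNO replicates 1 and 2, so that CNO replicate 1 alone was higher. The thalamus-type markers in other neurons summed to 149 CPM in the control and 338 and 445 CPM in the CNO libraries, and their part was not tested. Creb3l1 rested on 4, 3 and 3 UMIs in Oxt-positive neurons, gave ratios of 1.09 (-1.68 to 3.66) and -0.33 (-3.10 to 2.24), and was not tested there. In other neurons it was 2.37 CPM in the control and 1.90 and 1.17 CPM in the CNO libraries, while the cluster with Vipr2 among its leading genes held 59, 45 and 2 nuclei. The part of that cluster in these levels was not tested.

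Caprin2, Foxp1 and Calb1 were not called in Oxt-positive, Reln-poor, Sim1-positive or other neurons by edgeR, nor was Creb3l1 in Sim1-positive and other neurons. Creb3l1 was not tested in Oxt-positive or Reln-poor neurons. All genes gave 0.213% called of 12187 in Oxt-positive neurons (0.189% higher and 0.0246% lower) and 0.301% of 11631 in Reln-poor neurons (0.249% higher and 0.0516% lower). In Sim1-positive neurons 0.0124% of 16138 and in other neurons 0.021% of 19003 were called, all of them higher. At an unadjusted edgeR p under 0.05, only Caprin2 among the genes tested of the 4 was counted. Its unadjusted edgeR p was 0.00117 in Oxt-positive and 0.000352 in Reln-poor neurons, where 578 and 612 genes were under that limit. Over 4 alternatives, DESeq2 among them, the adjusted p of Caprin2 ran from 0.259 to 1.00 in Oxt-positive neurons and from 0.0976 to 1.00 in Reln-poor neurons.

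**Figure D5:**
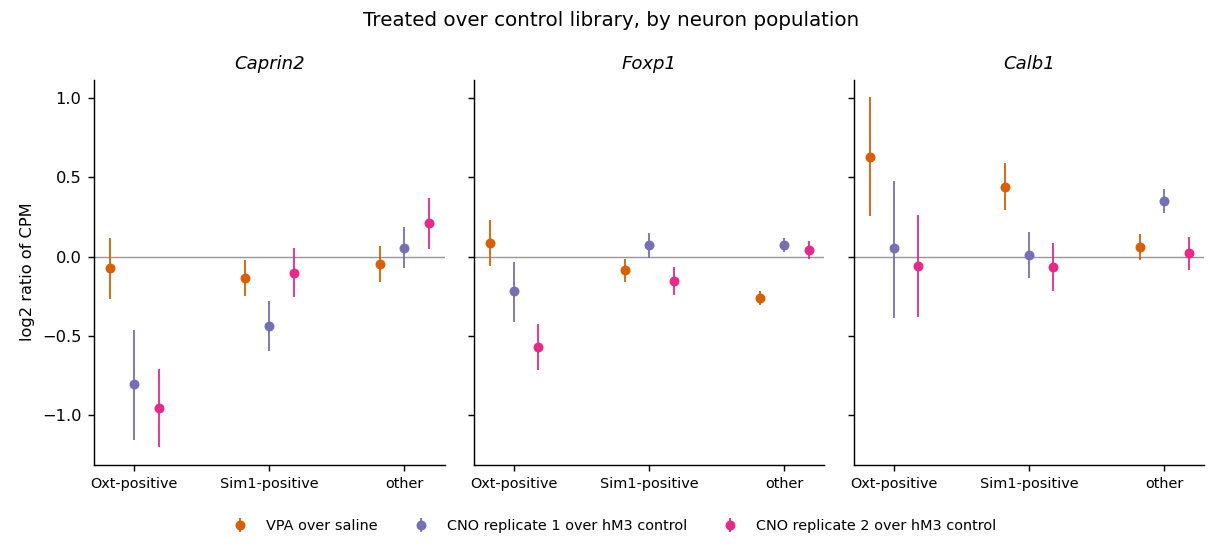
Log2 ratio of CPM (vertical axis) of the VPA library over saline and of each CNO library over the hM3 control, for Caprin2, Foxp1 and Calb1 in 3 neuron populations, with exact 95% counting intervals. The Caprin2 ratios of both CNO libraries in Oxt-positive neurons (-0.81 and -0.96) and the Calb1 ratio of VPA there (0.63) lie farthest from 0.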

How the data were processed

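The deposited files hold raw UMI counts per gene and nucleus, which the authors made with Cell Ranger 7.0.1 on mm10, per the submitters' processing notes. Whether introns and strand were used in counting is not given in the sources used here. All deposited value columns were matched to samples (0 left out). Nuclei under 1000 UMIs or above 5% mitochondrial UMIs were dropped, and the highest Scrublet scores were removed (0.8% per 1000 nuclei). Clustering (Python 3.11.15, scanpy 1.11.5, leidenalg 0.10.2, resolution 1) gave 39 clusters, 19 of them neuronal, and 1667 nuclei of unnamed clusters were left out. The members and lists were chosen with earlier results of these data known. Counts were summed per library and population and tested with edgeR 4.0.16 (R 4.3.3) over all genes passing its low-count filter, with Benjamini-Hochberg adjustment at 0.05. The SE given with an edgeR estimate was derived as the absolute log2 difference divided by the square root of its F statistic. Library was the block, since populations of 1 library share animals. CNO was compared with the hM3 control within a population. The mean CNO ratio is the log2 ratio of the mean CPM of the 2 CNO libraries to the control CPM. VPA against saline has 1 library each, so no test was made. Besides the 4 genes, up to 4 called genes per list with the largest log2 difference were named, with 3 alike genes and 3 highest sub-clusters per gene. Intervals are exact at 95% and, like the limit for a count of 0 (3 counts), cover counting error only. Tested on simulated data, the Oxt-positive against Sim1-positive test recovered 67.9% of 2-fold changes (16515 genes), the Reln test 73.1% (7121 genes) and the CNO test in Oxt-positive neurons 9.1% (12187 genes). Alternatives were DESeq2 1.42.0 and its size factors, TMM, no low-count filter, no block, other limits for neurons, Oxt and Reln, thinning to 2000 UMIs, means over nuclei and leaving out each library. Restricting Oxt-positive nuclei to 2 clusters was chosen after seeing the data. The 14 immune genes used in leaving clusters unnamed were also listed after the clusters had been seen. Some unnamed clusters with all 6 neuron markers were uneven over saline, VPA, the hM3 control and the CNO replicates. That led by Ptgds held 2, 4, 109, 137 and 407 nuclei in that order. That led by Ly86 held 9, 9, 94, 74 and 206, and that led by Gabra6 held 1, 120, 0, 0 and 0.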

Additional observations from a re-analysis of the deposited data

Results flagged for a closer look

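Caprin2 was lower than the hM3 control in Oxt-positive neurons of both CNO libraries (log2 ratios of -0.81 and -0.96, mean -0.88) and higher in other neurons of both (0.06 and 0.21, mean 0.13), so the means differed by -1.01. In Sim1-positive neurons its ratios were -0.44 and -0.1 (mean -0.26), and this mean differed from that of other neurons by -0.4. The counting interval for CNO replicate 2 in Sim1-positive neurons included 0 (-0.26 to 0.05). Foxp1 was lower in Oxt-positive neurons of both CNO libraries (-0.22 and -0.57, mean -0.38) and higher in other neurons of both (0.07 and 0.04, mean 0.06), so the means differed by -0.44. These values are listed because the ratios of both CNO libraries had one sign in one population and the opposite sign in the other. Each mean here is the log2 ratio of the mean CPM of the 2 CNO libraries to the control, not the mean of the 2 log2 ratios. The differences were not tested, and the same control library enters every ratio. In other neurons the counting interval included 0 for Caprin2 in CNO replicate 1 (-0.07 to 0.19) and for Foxp1 in CNO replicate 2 (-0.02 to 0.10). The mean ratio there changed sign for both genes at 2000 UMIs per nucleus (Caprin2 -0.0004, Foxp1 -0.0614), and for Foxp1 also as a mean over nuclei (-0.0158) and with TMM factors (-0.0302), and the edgeR estimate for Foxp1 was -0.04. Among Oxt-positive nuclei of the 2 main clusters the mean ratio was -0.48 for Caprin2 and -0.10 for Foxp1. Thalamus-type markers in Oxt-positive neurons summed to 18.2 CPM in the control and 25.9 and 220 CPM in the CNO libraries. In Sim1-positive neurons they summed to 50.9 CPM in the control and 122 and 201 CPM in the CNO libraries, while the lineage genes summed to 314, 251 and 243 CPM.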

How the results depend on the processing

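Of 523 recomputed values for 65 results, 454 kept their direction and their side of the threshold or stayed within the spread used to judge them, 58 moved, 4 reversed, 1 passed the threshold only in the alternative and 6 no longer passed. The causes were not tested, except that fewer UMIs, nuclei or libraries enter some alternatives by construction.

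With nuclei thinned to 2000 UMIs, 928 genes were called between Oxt-positive and Sim1-positive neurons (2846 before thinning), 1481 between Oxt-positive and other (4531), 1520 between Sim1-positive and other (2824) and 251 on the Reln split (713), and Calb1 was 0.60 between Oxt-positive and Sim1-positive neurons (edgeR adjusted p = 0.0532). The thinned VPA ratios were 0.20 for Caprin2 and 0.25 for Foxp1 in Oxt-positive, 0.21 and 0.20 in Reln-poor, -0.23 and -0.17 in other neurons, and for Calb1 0.67 in Sim1-positive and 0.15 in other neurons. The thinned mean CNO ratios were -1.30 for Caprin2 and -0.53 for Calb1 in Oxt-positive, -1.51 and -0.81 in Reln-poor neurons, 0.17 for Foxp1 in Sim1-positive neurons, and -0.0004 for Caprin2 and -0.0614 for Foxp1 in other neurons.

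With neurons chosen by marker UMIs, the mean CNO ratios in Oxt-positive neurons were -1.0 for Caprin2 and -0.14 for Calb1, and Calb1 between Sim1-positive and other neurons was -0.23 (edgeR adjusted p = 0.0573). From 10 Oxt UMIs, VPA ratios were 0.30 for Caprin2 and 0.54 for Foxp1 in Oxt-positive and 0.18 and 0.29 in Reln-poor neurons, CNO ratios were -0.15 for Calb1 in Oxt-positive and -0.89 for Caprin2 in Reln-poor neurons, 291 genes were called on the Reln split, and Creb3l1 between Oxt-positive and Sim1-positive neurons reversed to 0.0019. In the 2 main clusters, mean CNO ratios were -0.48 for Caprin2, -0.10 for Foxp1 and -0.31 for Calb1 in Oxt-positive neurons and -0.58 for Caprin2 and -0.52 for Calb1 in Reln-poor neurons, with 1 and 3 genes called (26 and 35 with all clusters).

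As means over nuclei, CNO ratios of Calb1 were -0.25 in Oxt-positive, -0.0886 in Sim1-positive and -0.39 in Reln-poor neurons, of Caprin2 -0.83 in Reln-poor, of Creb3l1 -0.92 in Sim1-positive and of Foxp1 -0.0158 in other neurons, where the VPA ratios were -0.20 for Foxp1 and 0.15 for Calb1. With TMM factors, Calb1 in Sim1-positive neurons had a CNO ratio of -0.0925, and in other neurons Foxp1 had -0.36 for VPA and -0.0302 for CNO and Calb1 -0.0409 for VPA.

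With no replicate block for the library, 1361, 2492, 435 and 446 genes were called in the 4 population comparisons (Oxt-positive against Sim1-positive, against other, Sim1-positive against other, Reln split), Calb1 was -0.27 between Sim1-positive and other neurons (edgeR adjusted p = 0.322) and Caprin2 -1.07 on the Reln split (edgeR adjusted p = 0.0829). Dropping the block changed no other call of the 4 genes. For CNO, DESeq2 called 0 genes in Oxt-positive, 10 in other (4 by edgeR) and 0 in Reln-poor neurons, its size factors in edgeR gave 1 in Reln-poor neurons, and no low-count filter gave 20 in Sim1-positive (2 with it) and 37 in other neurons.

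Leaving out each library in turn gave 459 to 737 genes on the Reln split (459 without saline). Creb3l1 ran from -0.40 to 0.13 between Oxt-positive and Sim1-positive neurons (0.01 without VPA, 0.13 without the hM3 control) and from -0.22 (without saline) to 0.73 against other neurons. Calb1 ran from 0.16 to 0.32 between Oxt-positive and other neurons (edgeR adjusted p = 0.0111 without saline) and from -0.35 to -0.18 between Sim1-positive and other neurons (0.0603 without saline, 0.0643 without CNO replicate 1). Without 1 CNO library the CNO comparison is 1 against 1 and gives a ratio with no test. Creb3l1 rests on the fewest UMIs of the 4 genes, with 17 in all Oxt-positive nuclei.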
